A study of Mus musculus with 16 samples.

Results

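The distal stump of the crushed sciatic nerve of WldS mice was compared at 14 days and at 7 days after injury. The comparison rests on 4 of the 16 arrays of the study, 2 at day 14 and 2 at day 7, chosen by their labels, and it covers all genes that could be measured, with 1 probe set per gene. The interval covers the delayed loss of axons in this strain. The series profiled a nerve segment 4 mm long, taken 1 mm to 5 mm beyond a microcrush at mid-thigh of the left sciatic nerve, with 2 arrays for each of 2 strains at 4 times. The WldS arrays at day 14 and at day 7 came from injured C57BL/6 OlaHsd-Wlds mice, which carry the WldS mutation, and those at day 0 from uninjured mice of the same strain. The C57BL/6 arrays came from injured mice of the strain without the mutation at day 14 and day 7, and from uninjured ones at day 0. Arrays of both strains at day 3 after injury enter the fit and are used only to show the course. All mice were 8 to 12 weeks old, and 56 mice of each strain were used. Stumps were pooled within a group before RNA extraction, so each array describes a pool of animals and not an animal. The sample titles call the 2 arrays of a group biological replicates, and the number of mice behind each is not given in the labels used here. They are called the pools of a group below, and p-values measure the spread between them.

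After a crush, the axons beyond the lesion break down in a process called Wallerian degeneration, and their Schwann cells, the myelinating and supporting cells of peripheral nerve, shed their myelin programme and take on a repair state. Blood monocytes enter and become macrophages that clear myelin, and fibroblasts and vessel cells rebuild the tissue through which axons regrow. The WldS allele encodes a fusion of a piece of Ube4b with Nmnat1, an enzyme that makes NAD, and it delays the breakdown of cut axons for weeks, so that in WldS mice these responses run late.

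Of 18193 genes with a probe set of their own, 14545 passed a filter on dim signals, a mean log2 signal of at least 5.37 over the 16 arrays. A gene was called where limma gave a Benjamini-Hochberg adjusted p below 0.05 over these genes. Array medians lay between 6.42 and 6.49 log2 units, and the median SD between the 2 pools of a group was 0.111 at WldS day 14 and 0.118 at WldS day 7. Of the Schwann cell markers checked, Sox10 stood at 11.89 and 12.06 at day 14 and at 11.14 and 11.35 at day 7, S100b between 10.65 and 11.28, and the myelin gene Mbp between 13.94 and 14.21 in the 4 arrays. The skeletal muscle marker Ckm lay at 6.29 to 6.41, not far above the filter, whereas the adipocyte gene Adipoq lay at 10.41 to 11.16, well above it at both times. The difference between the 3' and 5' control probe sets of actin and Gapdh, a sign of RNA or labelling quality, was 2.22 and 3.23 log2 units in replicates 1 and 2 at WldS day 14, against 2.02 and 2.00 at WldS day 7. Replicate 2 at day 14 thus stood apart from the 3 arrays it was compared with. Many counts below are also given without it, but not all. Among others, the calls of the chemokine, complement, MHC class II, phagocytic, NAD, B cell and mast cell lists are given only with it and may depend on it. Replicate 1 at WldS day 0 had a still higher difference, 3.81, and enters the WldS day 0 means given below. It and replicate 2 at day 14 are the arrays of high 3'/5' difference named below.

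Groups that do not overlap are common with 2 pools a side: 20.9% of all genes had both day 14 pools above both day 7 pools, and 23.4% had both below. In WldS nerve 760 genes, or 5.23% of those tested, changed over the interval. Of these, 234 rose (1.61%) and 526 fell (3.62%), and 52 of the rises and 130 of the falls were at least 2-fold. The median change of all genes was -0.01. Each of the 760 had the same direction in both day 14 pools relative to the day 7 mean. The calls rest on these same pools and favour such agreement, so it is no separate support. Without replicate 2 at day 14 the count fell to 246 genes (1.69%), 85 higher (0.584%) and 161 lower (1.11%), of which 81 rises and 156 falls were among the original calls. Replicate 2 showed the larger change for 396 of the 526 falls and 147 of the 234 rises, and for 68.0% of all genes tested. Without replicate 2 at day 7 the count was 444. How far the quality of that day 14 array enters the calls was not tested beyond these counts and a fit with the 3'/5' difference as a covariate, which called 586 genes.

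**Figure D1:**
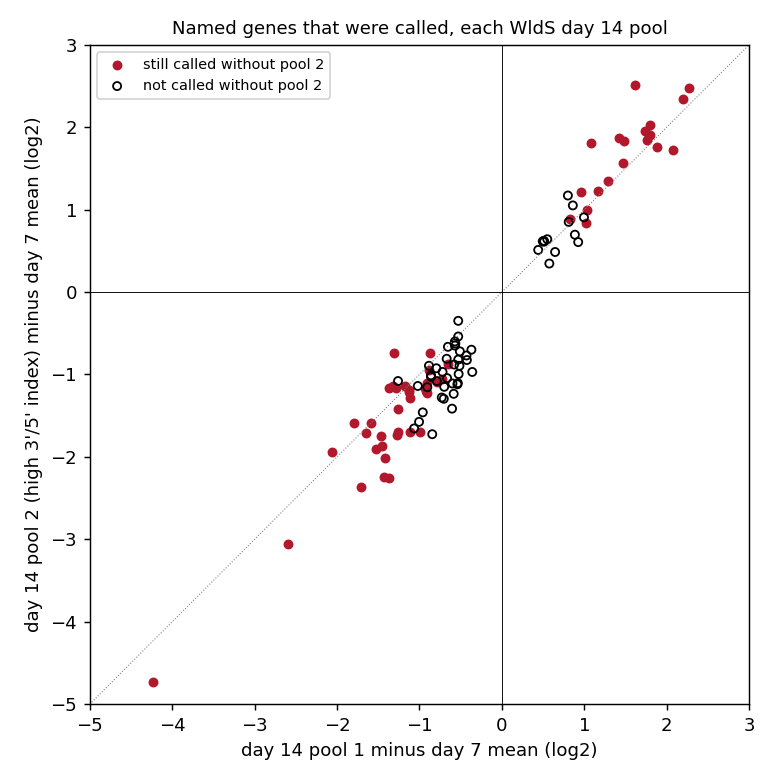
Log2 change from the WldS day 7 mean in day 14 pool 1 (horizontal axis) and pool 2 (vertical axis), 1 point for each of 106 named genes that were called. Filled red points, 55 genes, were still called when pool 2, the array with the high 3'/5' difference, was left out, and open points, 51 genes, were not. All 106 share their sign between the pools, which the calls themselves favour, and 86 lie farther from 0 in pool 2.

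The plot of each pool's change shows that the genes not called without replicate 2 lie mostly nearer to 0. Among 106 genes named here by rule and called, 55 were called in every fit that left out any of the 4 arrays.

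The largest rise was that of Kcnj10. It encodes the inward-rectifier potassium channel Kir4.1 of glia and stood at 9.47 and 9.67 log2 units in the day 14 pools, against 7.03 and 7.36 in the day 7 pools. The gene rose by 2.37 (SE 0.20, adjusted p = 2.01e-05), or 5.19-fold. Gjc3, the connexin 29 gap junction protein of Schwann cells, had 9.44 and 9.09 at day 14 and 7.28 and 7.46 at day 7, a rise of 1.89 (SE 0.25, adjusted p = 0.000511). Adam23, a cell-surface protein that binds Lgi proteins, rose by 1.85, with 9.08 and 9.30 at day 14 and 7.50 and 7.19 at day 7. Sh3gl3, an endophilin of vesicle formation, rose by 1.66, with 10.04 and 10.40 against 8.53 and 8.60. All day 14 values of these genes lay above all day 7 values.

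Tyrp1, an enzyme of melanosomes, read 7.16 and 7.31 at day 14, against 5.03 and 4.90 at day 7. Its day 7 mean lay below the dim filter, so the rise on this probe set is a bound of at least 3.65-fold (adjusted p = 5.02e-06). Other Tyrp1 sets, just above the filter with means of 5.92 and 5.91, changed by only 0.43 and 1.18. Adamts20, a secreted metalloprotease that mouse melanoblasts need for their spread through skin, had 8.00 and 8.23 at day 14 and 5.85 and 6.56 at day 7, a rise of 1.91. Other melanocyte genes, looked up after these values were seen, did not pass the test: Dct read 5.88 and 6.16 at day 14 and 5.84 and 5.96 at day 7, and Pmel and Tyr changed by 0.14 and 0.08. Mitf, the transcription factor of that lineage, changed by -0.09. Ednrb, a neural crest endothelin receptor, and Foxd3, a crest transcription factor, were chosen in the same way and rose by 1.21 and 1.05, with adjusted p = 0.000913 and 0.0179. Foxd3 was no longer called without replicate 2 at day 14.

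Further genes among the 12 largest rises encode membrane and secreted proteins. Trpm3, a cation channel, had 7.52 and 7.65 at day 14 and 6.25 and 5.23 at day 7, a rise of 1.85 with unequal day 7 pools. Tenm1, a teneurin that bridges cell surfaces, read 7.40 and 7.48 against 5.61 and 5.67, and Insyn2b read 7.40 and 7.28 against 5.61 and 5.43. Their pools lay close together within each day, and the rises of 1.80 and 1.82 had standard errors of 0.12 and 0.14. Ttyh1, of the tweety family of membrane proteins, rose by 1.64. Saa1, an acute-phase apolipoprotein, averaged 9.06 ± 0.09 at day 14 and 7.21 ± 0.21 at day 7 (SD, n = 2 pools each; limma), a rise of 1.85 (adjusted p = 0.00216).

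**Figure D2:**
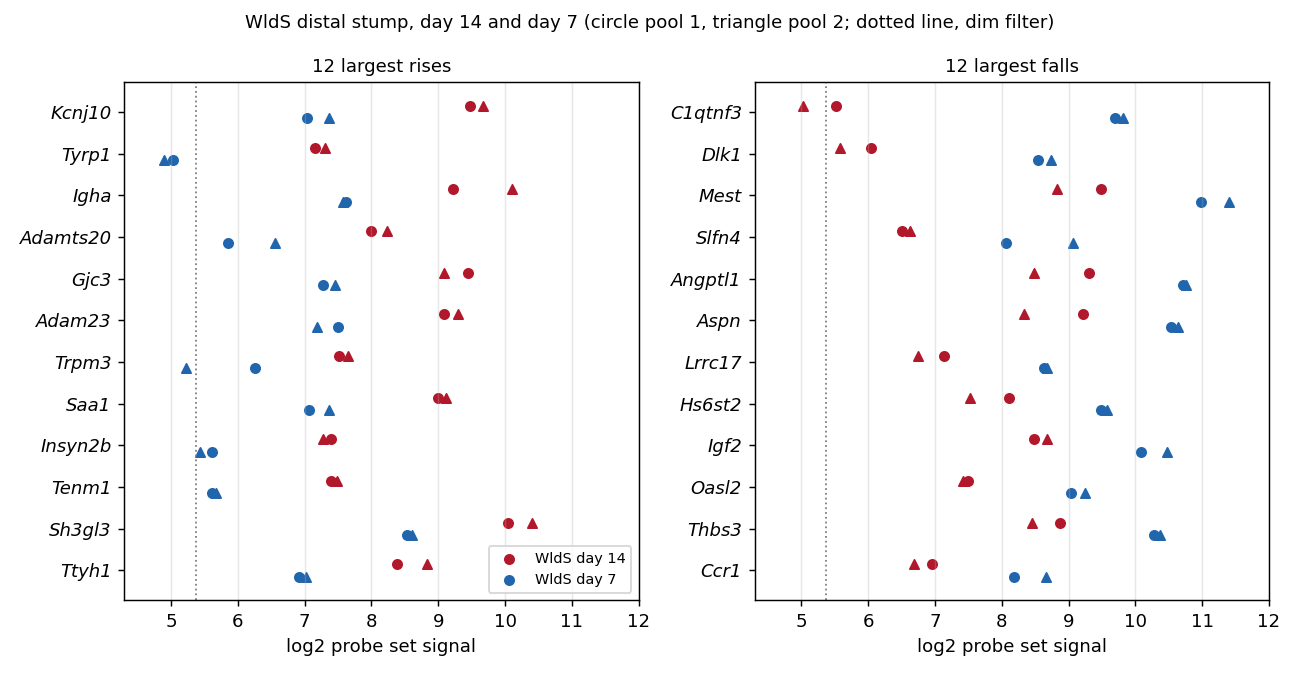
Log2 probe set signal in each WldS pool for the 12 genes with the largest rises (left) and the 12 with the largest falls (right), day 14 in red and day 7 in blue, pool 1 as a circle and pool 2 as a triangle. The dotted line is the dim filter at 5.37. Genes were chosen among those whose groups do not overlap. They run from Kcnj10 at 9.47 and 9.67 against 7.03 and 7.36 to C1qtnf3 at 5.52 and 5.03 against 9.69 and 9.82.

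Transcription factors of the Schwann cell were among the groups with the most rises. Of 20 tested, 6 rose and 1 fell, with a median change of 0.19. This and every list count in WldS below is to be read beside the shares of all genes, 1.61% higher and 3.62% lower. Pou3f1 (Oct6), which drives promyelinating Schwann cells forward, read 10.92 and 11.01 at day 14 and 9.33 and 9.57 at day 7, a rise of 1.52 (SE 0.18, adjusted p = 0.000262). Sox2, a factor of immature Schwann cells that holds back myelination, read 10.07 and 10.13 against 8.70 and 8.86, a rise of 1.32 (SE 0.13, adjusted p = 7.3e-05). Both genes had day 14 pools close together and far above their day 7 pools.

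Zeb2, a repressor needed for Schwann cell differentiation and remyelination, rose by 0.99, the early growth response factor Egr3 by 0.96, the helix-loop-helix inhibitor Id2 by 0.95 and Sox10, the lineage factor of Schwann cells, by 0.73. Nfatc4, a calcineurin-dependent factor of myelination, fell by 0.53. Egr2 (Krox20), which drives myelination, changed by 0.36 and Jun, which drives the repair state, by 0.19, and neither passed the test. With replicate 2 at day 14 left out, Pou3f1 and Sox2 were the 2 factors called, both higher, and the list median was 0.22. Another probe set of Egr3 changed by -0.01, and the other sets of Nfatc4 above the dim filter by 0.16 and -0.09. In bulk nerve RNA, more cells of a kind and more RNA per cell cannot be told apart, and this holds for every gene group below.

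Repair and immature Schwann cell genes moved the same way, 4 of 20 rising and none falling, with a median of 0.21, and 4 were again called without replicate 2. Megf10, an engulfment receptor known from astrocytes, read 10.34 and 10.40 at day 14 and 9.15 and 9.20 at day 7, a rise of 1.20 (adjusted p = 0.00264). L1cam, an adhesion molecule of non-myelinating Schwann cells and axons, had 11.08 and 11.33 against 10.12 and 10.12 and rose by 1.09. Ncam1, which marks the same immature and non-myelinating cells, had 9.75 and 9.82 against 8.94 and 8.92 and rose by 0.86, while its 4 other probe sets above the dim filter changed by -0.01, 0.86, 0.32 and 0.96. Sox2, described above, is also on this list.

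The low-affinity neurotrophin receptor Ngfr read 10.49 and 10.49 at day 14 and 9.75 and 9.47 at day 7, a change of 0.88 that missed the threshold (adjusted p = 0.0794). The trophic factor Gdnf changed by 0.23, the growth factor Btc by 0.56, and the ligand Shh by -0.46, none past the threshold. The neuregulin receptor Erbb3, a Schwann cell marker used to check the tissue, rose by 0.96 (adjusted p = 0.00922), with 11.88 and 11.51 at day 14 and 11.05 and 10.42 at day 7. Another probe set of Erbb3 showed no change.

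Genes of synaptic vesicles and electrical excitability, taken as 1 list, gave 3 rises and no fall among 12, with the highest median of the 37 lists, 0.32. Beside Kcnj10 these were the juxtaparanodal Shaker channels Kcna2, with 10.37 and 10.33 at day 14 and 9.42 and 9.25 at day 7, and Kcna1, with 12.74 and 12.42 against 12.00 and 11.63. They rose by 1.02 (adjusted p = 0.000787) and 0.77 (adjusted p = 0.0393), and Kcna1 was not called without replicate 2 at day 14. Other Kcna1 probe sets above the dim filter changed by 0.71 and 0.95. Kcna6, a relative looked up after its value was seen, rose by 1.34, as did the adhesion genes Cadm1 by 1.30, Negr1 by 1.35 and Ntm by 1.10, chosen likewise.

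**Figure D3:**
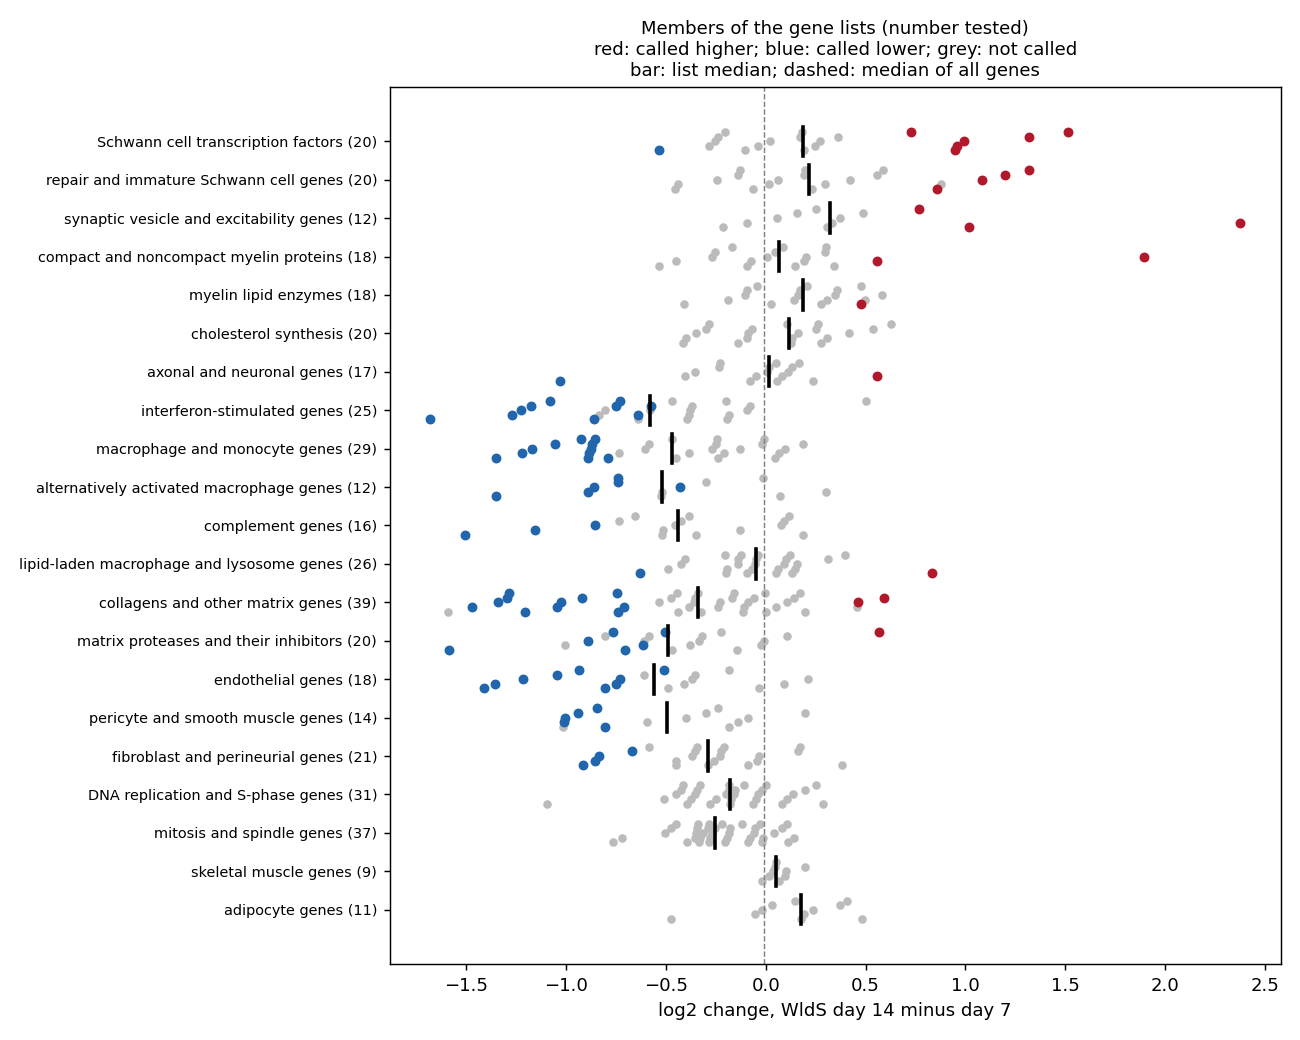
Log2 change from day 7 to day 14 in WldS nerve of every tested member of 21 gene lists, with the number tested in parentheses. Red points are genes called higher, blue points genes called lower and grey points genes that did not pass, bars are list medians, and the dashed line is the median of all genes, -0.01. Blue points gather in the interferon, macrophage, matrix, endothelial and pericyte lists. Red points gather in the Schwann cell lists and the synaptic vesicle and excitability list.

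Of 18 myelin protein genes, Gjc3 and Cnp rose, which is 11.1% against 1.61% of all genes, and none fell. The median change was 0.07. Cnp, an enzyme of noncompact myelin, read 13.37 and 13.47 at day 14 and 12.76 and 12.96 at day 7, a rise of 0.56 (adjusted p = 0.0131) that was not called without replicate 2. Mbp, the basic protein of compact myelin, read 14.21 and 14.14 against 13.94 and 14.01, and Mag, the adhesion protein of the inner myelin wrap, read 10.01 and 9.74 against 9.44 and 9.72. Their pools do not overlap, but neither change, 0.20 and 0.30, passed the test. Ncmap, a small protein of noncompact myelin, read 11.34 and 11.20 against 11.16 and 11.54, with overlapping groups.

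Of 18 enzymes of myelin lipid, only Gpam, which starts glycerolipid synthesis, rose, by 0.48 (adjusted p = 0.0155), again not without replicate 2, and the list median was 0.19. None of 20 cholesterol synthesis genes was called by limma, with a median of 0.12. Hmgcs1, the enzyme that makes HMG-CoA, came near with 12.74 and 13.16 at day 14 and 12.42 and 12.41 at day 7, a change of 0.54 (adjusted p = 0.0538), while Idi1, which isomerizes isoprenoid units, changed by 0.28 and Sqle, the squalene epoxidase, by -0.14. Over the whole course the mean log2 signal of the cholesterol list was 10.1 at day 0, 8.46 at day 3, 8.53 at day 7 and 8.58 at day 14 in WldS nerve. The 3 injured times lay close together, well below day 0.

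Of 17 transcripts known from axons and neurons, 1 rose and 1 fell (5.88% each way, against 1.61% of all genes higher and 3.62% lower), with a median of 0.02. Nefl, the light neurofilament chain and the best known axonal marker here, averaged 7.96 at day 0, 5.96 at day 3, 5.39 at day 7 and 5.16 at day 14 over the pools of each time. At day 14 its pools read 5.00 and 5.32, and at day 7 they read 5.36 and 5.42, all near the dim filter, so a further fall would be hard to detect (adjusted p = 0.584). Most such RNA is made in cell bodies outside the nerve, and the arrays do not measure the axons themselves.

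The gene that rose was Mapt, the microtubule protein tau, with 8.47 and 8.58 at day 14 and 8.09 and 7.83 at day 7, up by 0.56 (adjusted p = 0.0111). Its other probe sets changed by 0.55, 0.95 and -0.02, and it was not called without replicate 2 at day 14. Chga, a protein of secretory granules, read 5.60 and 6.17 against 6.84 and 6.98 and fell by 1.03 (adjusted p = 0.00232). The other 15 ranged from -0.40 for Thy1, a surface glycoprotein, to 0.24 for Kif5a, a kinesin motor, with Prph at 0.13, Tubb3 at 0.08, Stmn2 at -0.35, Stmn3 at 0.05, Syt1 at 0.17, Uchl1 at -0.05, Gap43 at 0.02, Map2 at 0.05, Map1b at -0.23, Sncg at 0.01, Kif1a at 0.11, Rtn1 at -0.08 and Nefl at -0.23. None of these 15 passed the test.

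Nmnat1, whose transcribed sequence is part of the WldS fusion, read 8.90 and 8.81 at day 14 and 8.50 and 8.75 at day 7 in WldS nerve, and 5.42 and 5.50 at day 14 and 5.59 and 5.47 at day 7 in C57BL/6 nerve. All 4 WldS pools lay far above the 4 C57BL/6 pools, and the change within WldS, 0.23, did not pass the test (adjusted p = 0.467). Sarm1, the NADase that carries out axon breakdown, changed by 0.32, Nampt by -0.02 and Nmnat2 by 0.10, without a call. On a list of 16 genes of NAD metabolism and axon degeneration 2 fell. One was Bst1, an NAD-consuming surface enzyme, with 5.26 and 5.11 at day 14 against 5.81 and 6.43 at day 7, at least 1.68-fold lower because its day 14 mean is below the dim filter. The other was Dlk1, which encodes a Notch-like surface protein and does not belong to this pathway despite its place on the list.

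Several of the largest falls were in genes of secreted proteins and of growth. C1qtnf3, a secreted C1q-like protein known from cartilage, read 5.52 and 5.03 at day 14, against 9.69 and 9.82 at day 7. The day 14 mean is below the dim filter, so the gene was at least 20.9-fold lower (adjusted p = 2.67e-06). It averaged 4.82 at day 0, 7.12 at day 3, 9.76 at day 7 and 5.28 at day 14. The level was highest at day 7, and at day 14 it was near that of uninjured nerve.

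Dlk1, known as an inhibitor of fat cell differentiation, read 6.04 and 5.58 at day 14 and 8.54 and 8.74 at day 7, a change of -2.83 (SE 0.20, adjusted p = 5.02e-06). Mest, an imprinted gene active in growing tissue, read 9.49 and 8.83 against 10.99 and 11.40, a change of -2.04 (adjusted p = 8.69e-05). Igf2, the imprinted fetal growth factor, read 8.48 and 8.68 against 10.08 and 10.47, a change of -1.70 (adjusted p = 7.3e-05). In these 3 genes all day 14 pools lay well below all day 7 pools. Further imprinted genes were looked up once these were seen. On the brightest probe sets Grb10, a brake on insulin and growth factor signals, fell by 1.27 and the zinc finger gene Plagl1 by 0.94. Peg3 changed by -0.50 (adjusted p = 0.0529) and the noncoding Meg3 by -0.20, neither called. Other sets above the dim filter changed by -0.22 in Grb10, by -0.10 and -1.37 in Plagl1 and by -0.90 and -0.95 in Peg3. Those of Meg3 ran from -0.98 to 0.16. Plagl1 was not called without replicate 2 at day 14. Igf1, the postnatal growth factor, fell by 0.93 and was not called without that array.

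Aspn, a small proteoglycan that binds collagen, read 9.22 and 8.33 at day 14 and 10.53 and 10.64 at day 7, a change of -1.81 (adjusted p = 0.000511). Angptl1, an angiopoietin-like secreted protein, read 9.31 and 8.49 against 10.72 and 10.76, a change of -1.84, with its other probe sets at -0.88 and 0.08. Thbs3, a thrombospondin, had 8.87 and 8.46 against 10.28 and 10.37 and fell by 1.66. In all 3 the day 14 pools lay apart from each other, replicate 2 being lower, yet both were below day 7. Lrrc17 and Hs6st2, a sulfotransferase of heparan sulfate chains, each fell by 1.72 on the probe set used. Another Hs6st2 set, just above the dim filter with a mean of 5.41, changed by 0.10, and the remaining sets of both genes are below the filter.

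Collagen and matrix genes fell more often than they rose, 11 lower and 2 higher of 39, with a median of -0.34. These are 28.2% and 5.13%, against 3.62% and 1.61% of all genes. Cthrc1, a collagen triple helix protein induced by injury, read 11.36 and 10.92 at day 14 and 12.51 and 12.72 at day 7, a change of -1.47 (adjusted p = 0.000357). Vcan (versican), a large proteoglycan, fell by 1.34 on its brightest probe set and by -1.91 and -0.96 on the others above the dim filter, and Eln (elastin) fell by 1.21. The crosslinking enzyme Lox, read at 11.66 and 10.78 against 12.61 and 12.40, fell by 1.28, and Col12a1 by 1.29. Another Col12a1 probe set changed by -0.95, and its other 2 are below the dim filter.

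The main fibrillar collagens did not pass, Col1a1 with 0.05 and Col3a1 with -0.17. The rises were Lamb1, a laminin chain of Schwann cell basal lamina, by 0.59 (adjusted p = 0.00609) and Col16a1 by 0.46. Without replicate 2 at day 14, 4 matrix genes were called, all lower (Col6a3, Eln, Cthrc1 and Vcan). Among 20 matrix proteases and inhibitors 6 fell and Mmp17 rose by 0.57, and the largest fall was Adam12, a membrane protease of activated mesenchyme, with 7.13 and 7.13 against 8.62 and 8.81 (-1.59, adjusted p = 0.000206). Mmp14, the membrane-bound collagenase, fell by 0.76, Adamts12 by 0.89, Adamts1 by 0.70, and Timp1, a metalloprotease inhibitor, by 0.61. Without replicate 2, 3 of this list were called lower and none higher.

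Fibroblast and perineurial genes gave 4 falls among 21 and no rise, with a median of -0.29. Cd34, a surface protein of stromal and endothelial cells, fell by 0.92, the Wnt antagonist Sfrp4 by 0.85, the peptidase Dpp4 by 0.83 and the microfibril gene Mfap5 by 0.67, and none of these was called without replicate 2 at day 14. Other Dpp4 probe sets changed by -0.24, -0.30 and -0.17. Of 18 Wnt antagonists and Hedgehog pathway genes 4 fell, Sfrp1 by 1.03, Sfrp2 by 1.01, Dkk2 by 1.00 and Sfrp4. Wif1, a secreted Wnt inhibitor, rose by 0.56, with 8.96 and 9.08 at day 14 and 8.32 and 8.61 at day 7. None of these 5 was called without replicate 2, where Gli2, a transcription factor of the Hedgehog pathway, was the 1 gene of the list called. Other probe sets of Sfrp1 changed by -1.82 to 0.04. Tgfb3, a TGF-beta ligand on the cytokine list, fell by 1.07 (adjusted p = 0.000696).

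Of 25 interferon-stimulated genes 10 fell (40.0%, against 3.62% of all genes) and none rose, with a median of -0.58. Oasl2, a 2'-5'-oligoadenylate synthetase-like protein, read 7.49 and 7.42 at day 14 and 9.03 and 9.24 at day 7, a change of -1.68 (SE 0.19, adjusted p = 0.000205). Oas1a, an antiviral synthetase, read 8.17 and 8.37 against 9.58 and 9.50 and fell by 1.27 (adjusted p = 0.00444). Irf7, the factor that amplifies interferon production, read 7.38 and 7.56 against 8.54 and 8.86 and fell by 1.23 (adjusted p = 0.00195). The day 14 pools of these genes lay close together and all below the day 7 pools.

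Ifit1, which binds foreign RNA, fell by 1.17, Usp18, the protease that removes Isg15 and damps interferon signalling, by 1.08, and Oas2 by 0.86. The others that fell were the peptide transporter Tap1, the factor Irf9, the RNA sensor Ddx58 and Mx1, whose day 14 mean was below the dim filter and whose fall was at least 1.27-fold. The other probe sets of Tap1 are below that filter. Slfn4, a Schlafen gene of myeloid cells that is not on the list, read 6.50 and 6.62 at day 14 and 8.06 and 9.07 at day 7, a change of -2.01 (adjusted p = 0.00166). With replicate 2 at day 14 left out, 4 of the 25 were called, Oasl2, Oas1a, Irf7 and Oas2. Over the course the list averaged 8.21 at day 0, 9.99 at day 3, 8.80 at day 7 and 8.20 at day 14 in WldS nerve, so that its day 14 mean was near the uninjured one.

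The letters of the interferon-stimulated response element, GAAANNGAAA, were searched in RefSeq promoters of build GRCm38.p6, from 250 bases before to 50 bases after each transcript start, on both strands, matches being allowed to overlap. They occur in 3.44% of all 32851 windows. Counted by gene, with a match in any window, they occur in 11 of the 21 tested interferon genes that have a window, or 52.4%, against 3.61% of the 11635 tested genes that have one. Of the 10 genes that fell, 7 had a window and 3 held the letters, Oas1a, Ifit1 and Ddx58, and none were found in those of Oasl2, Irf7, Irf9 and Tap1. The stretches for Oas1a, at chr5:120907526-120907595 on the minus strand, and for Ifit1, at chr19:34640760-34640829 on the plus strand, are shown because they hold 2 matches each, with the matched letters in capitals. They are written 5′ to 3′ on the strand of the gene, and TTTCNNTTTC is the same element on the other strand.
Oas1a: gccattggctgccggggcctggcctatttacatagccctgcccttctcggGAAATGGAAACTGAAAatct
Ifit1: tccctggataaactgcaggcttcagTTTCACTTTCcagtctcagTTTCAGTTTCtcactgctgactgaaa
The matches in Oas1a overlap, and those in Ifit1 lie apart. These are descriptions of the letters in the windows, and no binding was measured.

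Macrophage and monocyte genes fell in 11 of 29 cases (37.9%, against 3.62% of all genes) and rose in none, with a median of -0.47. Ccr2, the chemokine receptor of incoming monocytes, read 9.03 and 8.94 at day 14 and 10.02 and 10.29 at day 7, a change of -1.17 (adjusted p = 0.00203), with further probe sets at 0.05, -0.76 and -1.62. Fcgr1, a high-affinity IgG receptor, read 6.91 and 7.03 against 8.11 and 8.27 and fell by 1.22 (adjusted p = 0.00268). Another Fcgr1 probe set above the dim filter, with a mean of 7.49, changed by -0.07. Mrc1, the mannose receptor, read 10.54 and 9.83 against 11.43 and 11.63 and fell by 1.35 (adjusted p = 0.00182). The day 14 pools of Mrc1 stood apart from each other, and both lay below day 7.

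Ptprc (CD45), carried by all white blood cells, fell by 0.93, the endotoxin co-receptor Cd14 by 1.06 and the macrophage antigen Adgre1 (F4/80) by 0.79. Another Ptprc probe set changed by -0.27. Ccr1, another monocyte chemokine receptor outside the list, read 6.96 and 6.68 at day 14 and 8.19 and 8.67 at day 7, a change of -1.61 (adjusted p = 8.84e-05). Cd68 (-0.58) and Csf1r (-0.27) did not pass. Without replicate 2 at day 14, 6 of the 29 were called lower and the median was -0.59. From day 0 to day 14 the list averaged 9.09, 11.4, 10.5 and 9.96, a peak at day 3.

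Of 12 genes of alternative macrophage activation, 6 fell, with a median of -0.52, but only Mrc1 was called without replicate 2 at day 14. The haemoglobin scavenger receptor Cd163 fell by 0.89, the folate receptor Folr2 by 0.86, the lectin Clec10a by 0.74, fibronectin (Fn1) by 0.74 and Retnla by 0.43. Lipid-laden macrophage and lysosome genes stayed near 0 as a group, with a median of -0.05 over 26. Gpnmb, a glycoprotein of phagocytes that take up lipid and also of pigment cells, read 11.32 and 11.36 at day 14 and 10.30 and 10.72 at day 7 and rose by 0.83 (adjusted p = 0.00559), and Ctsk, a collagen-cutting cathepsin, fell by 0.63. Neither was called without replicate 2.

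Of 31 chemokines and cytokines 4 fell, Ccl6 by 1.16, Tgfb3, Ccl9 by 0.66 and Cxcl12 by 0.60, with a median of -0.22. Other Cxcl12 probe sets changed by -0.41 and 0.04. Ccl6, a macrophage chemokine, read 11.30 and 11.24 against 12.54 and 12.32 (adjusted p = 0.000387). Of 16 complement genes 3 fell, with a median of -0.44: Cfb, the alternative pathway protease, by 1.50, Cfp (properdin) by 1.16 with another probe set at 0.54, and Itgam, a subunit of complement receptor 3, by at least 1.80-fold. Of 10 MHC class II genes H2-Eb1 fell by 0.68, all 10 changes were negative, and the median was -0.39. Of 20 phagocytic receptors and bridging molecules Megf10 rose, and Gas6, the ligand of Axl and Mertk, and Itgam fell. Another Gas6 probe set above the dim filter changed by -0.04.

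Endothelial genes gave one of the highest shares of falls, 9 of 18, with none higher and a median of -0.56. Sox18, a transcription factor of endothelium, read 8.58 and 7.99 at day 14 and 9.59 and 9.79 at day 7, a change of -1.41 (adjusted p = 0.000511). Pecam1, the junction protein CD31, read 6.08 and 5.49 against 7.53 and 6.76 and fell by 1.36 (adjusted p = 0.00891), and Tie1, an orphan receptor kinase of endothelium, read 6.18 and 5.94 against 7.22 and 7.00 and fell by 1.05. Groups did not overlap in any of them, though the pools of Pecam1 lay far apart within each day.

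Emcn (endomucin) fell by 1.22, Cdh5 (VE-cadherin) by 0.93, the VEGF receptor Kdr by 0.80, Esam by 0.75, Plvap by 0.73 and Eng (endoglin) by 0.51, while the VEGF receptor Flt1 changed by -0.19. Without replicate 2, 4 of the 18 were called, and without replicate 1 9 were called. Pericyte and smooth muscle genes gave 5 falls among 14, median -0.50. They were Rgs5, a pericyte regulator of G proteins, with 11.11 and 10.80 at day 14 and 11.98 and 11.81 at day 7 (-0.94, adjusted p = 0.00128), the KATP channel subunits Kcnj8 (-1.01) and Abcc9 (-0.84), and the contractile genes Tagln (-1.01) and Acta2 (-0.81). The other probe sets of Acta2 are below the dim filter. With replicate 2 at day 14 left out, 3 were called.

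Genes of mitosis and DNA replication did not pass the test. Limma called none of 37 mitosis and none of 31 DNA replication genes in WldS nerve, with medians of -0.25 and -0.18. Mki67, the proliferation antigen Ki-67, read 10.73 and 10.51 at day 14 and 10.70 and 10.77 at day 7, against 6.56 at day 0 as a mean of the pools. Top2a, the topoisomerase of dividing cells, read 9.33 and 9.05 against 9.37 and 9.58. The mitosis list averaged 6.09 at day 0, 8.29 at day 3, 8.13 at day 7 and 7.91 at day 14, so it stood far above the uninjured level at both times compared. Other arrays left out gave calls, all lower: 6 mitosis and 2 DNA replication genes without day 7 replicate 1, and 3 and 1 without day 14 replicate 1.

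Immunoglobulin probe sets behaved apart. Igha, the IgA heavy chain, read 9.22 and 10.11 at day 14, against 7.62 and 7.58 at day 7, a rise of 2.06 (SE 0.21, adjusted p = 0.000101), and a kappa variable gene looked up afterwards, Igkv8-30, rose by 1.50 (adjusted p = 0.0323), not called without replicate 2. Other genes of B and plasma cells varied between pools: Jchain, the joining chain, read 9.07 and 8.97 at day 14 and 7.23 and 9.09 at day 7, and Ighm, the IgM heavy chain, read 10.55 and 8.98 against 9.67 and 11.15. Of 12 on the list only Irf4 changed, by -0.82.

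Markers of other tissue that a dissection could carry along moved little. None of 9 skeletal muscle, 11 adipocyte, 11 neutrophil or 11 T and NK cell genes was called by limma, their medians being 0.05, 0.18, 0.08 and -0.04. The summed log2 level of the adipocyte list ran from 96.1 to 98.4 at day 14 and from 94.4 to 97.0 at day 7, and that of the muscle list from 55.2 to 55.5 and from 54.6 to 54.9. Of 9 mast cell genes only the receptor Kit fell, by 0.59 (11.1%, against 3.62% of all genes). No gene of 34 in oxidative phosphorylation and none of 19 heat shock and unfolded protein genes was called. Of 20 glycolysis genes Pfkp and Pkm fell, by 0.61 and 0.54, of 20 immediate early genes Egr3 rose and Klf4 and Btg2 fell, by 0.58 and 0.44, of 9 heme and iron genes the exporter Slc40a1 fell by 0.94, of 24 neurotrophic factors and receptors Igf1 and Igf2 fell, and of 18 D cyclins and Cdk inhibitors Btg2 fell. Of the genes named in the last 2 sentences only Igf2 was called without replicate 2.

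The same interval in C57BL/6 nerve, which shares no array with the WldS comparison, gave 767 calls (5.27%), 361 higher (2.48%) and 406 lower (2.79%). In that strain axons are lost within days of a crush and regrow afterwards. Called in the same direction in both strains were 180 genes, 23.7% of the WldS calls and 23.5% of the C57BL/6 calls, and 14 were called in opposite directions. Of the WldS calls 85.9% had the same sign in C57BL/6, against 61.3% of all genes, and across the 14545 genes, which are not independent replicates, the changes had a Pearson r of 0.37. C1qtnf3 fell in both, with 5.28 at day 14 and 9.76 at day 7 in WldS and 5.33 and 8.62 in C57BL/6, and so did Dlk1, Mest, Igf2, Aspn and Cthrc1.

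A test of the difference between the strains' changes called 224 genes (1.54%). Of these, 91 had the higher change in WldS (0.626%) and 133 the lower (0.914%). List counts of differences below are to be read beside these shares. Of the 224, 147 were called in C57BL/6 and not in WldS, 53 in WldS and not in C57BL/6, 17 in both and 7 in neither. Most of the genes with a called difference were thus called in C57BL/6.

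**Figure D4:**
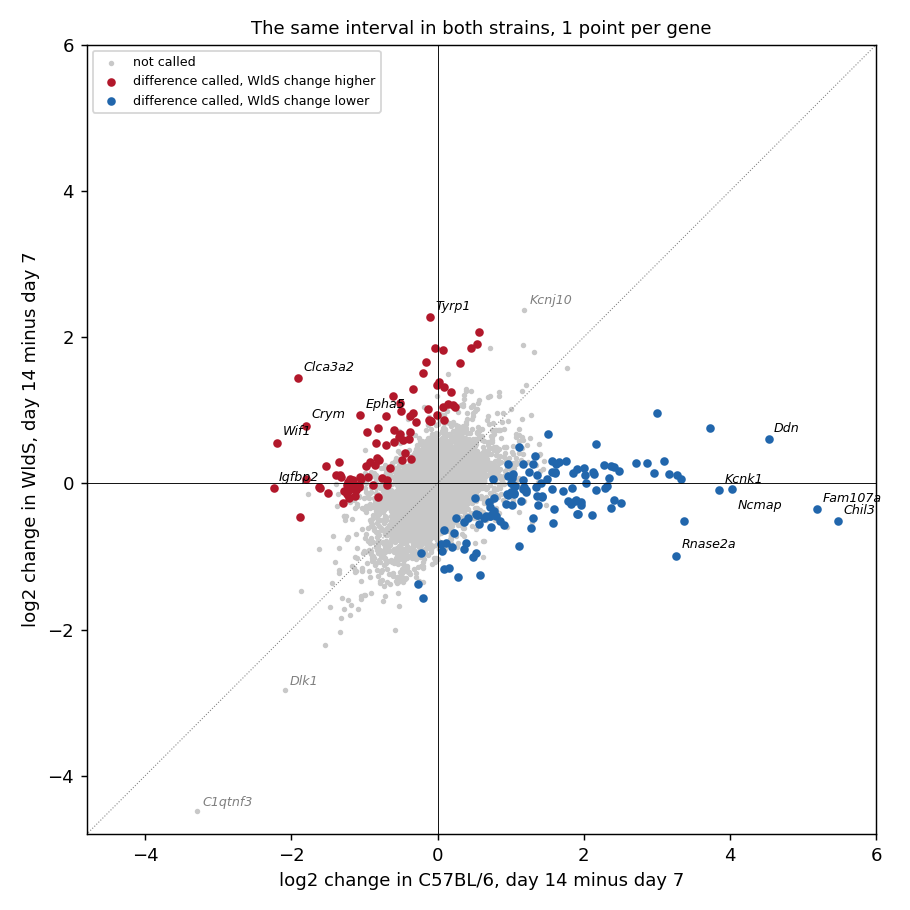
Log2 change from day 7 to day 14 in WldS nerve (vertical axis) and in C57BL/6 nerve (horizontal axis), 1 point per tested gene. Red and blue points passed the test of the difference, with the WldS change higher (91 genes) or lower (133 genes), grey points did not, and the dotted diagonal marks equal change. Chil3 and Fam107a lie farthest to the right, while C1qtnf3 and Dlk1 are low in both strains.

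Myelin showed this most. In C57BL/6 14 of 18 myelin protein genes rose, with a median of 1.36 against 0.07 in WldS, and 11 of 18 differences were called, all lower in WldS. Mbp read 14.21 and 14.14 at day 14 and 13.94 and 14.01 at day 7 in WldS, and 14.12 and 14.24 at day 14 and 12.19 and 12.15 at day 7 in C57BL/6, a difference of -1.81 (adjusted p = 1.04e-05). Its WldS pools were high at both times, and of the pools at these times only those of C57BL/6 at day 7 were low. The myelin protein list averaged 11.0 at day 0, 8.90 at day 3 and 9.23 at day 7 in C57BL/6, so it was already low at day 3. In cholesterol synthesis 16 of 20 rose in C57BL/6, median 1.03, and 6 differences were called. No cholesterol synthesis difference was called higher in WldS.

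Mitosis genes differed in the other direction. In C57BL/6 34 of 37 fell, and 7 differences were called, all with the WldS change higher. DNA replication genes fell in 13 of 31 cases there, and 2 differences were called. Repair Schwann cell genes fell in 7 of 20 cases in C57BL/6 and rose in 4 in WldS, and 8 differences were called higher. They were Igfbp2 (2.18), Megf10 (1.81, adjusted p = 0.00241), Shh (1.42), Btc, Sox2 (1.23, adjusted p = 0.00147), Gdnf (1.21), Cdh2 (1.11) and Ncam1 (0.95).

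Several rises brought WldS genes nearer to their C57BL/6 levels at both times, which stayed higher. Pou3f1 read 10.92 and 11.01 at WldS day 14, and its C57BL/6 means were 11.28 at day 14 and 11.49 at day 7. Sox2 averaged 10.10 at WldS day 14, against 10.81 at day 14 and 10.72 at day 7 in C57BL/6, and Sh3gl3 10.22 against 10.74 and 10.90. The differences in change were 1.72, 1.23 and 1.81, all called. Clca3a2, a chloride channel accessory protein, read 6.21 and 6.94 in WldS at day 14, against 4.82 and 5.45 at day 7, where its mean is below the dim filter and the rise at least 2.29-fold, while in C57BL/6 it read 8.46 and 8.29 at day 14 and 10.33 and 10.25 at day 7.

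For some groups no difference was called, even where the counts of calls look unlike. Interferon genes fell in 10 of 25 cases in WldS and in none in C57BL/6, yet none of the 25 differences passed, with Oasl2 nearest at -1.15 (adjusted p = 0.0504). Endothelial genes fell in 9 of 18 cases in WldS and in 1 in C57BL/6, and no difference was called. Matrix genes fell in 11 of 39 cases in WldS and in 10 in C57BL/6, again with no difference called. Of macrophage genes 3 differences passed, all lower in WldS, Ccr2 (-1.26), Itgb2 (-1.07) and Ptprc (-0.98). Arg1, arginase of alternatively activated macrophages, read 6.40 and 6.01 at day 14 and 6.31 and 7.13 at day 7 in WldS, and 10.47 and 9.23 at day 14 and 6.53 and 6.42 at day 7 in C57BL/6, a difference of -3.89 (adjusted p = 0.00146).

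**Figure D5:**
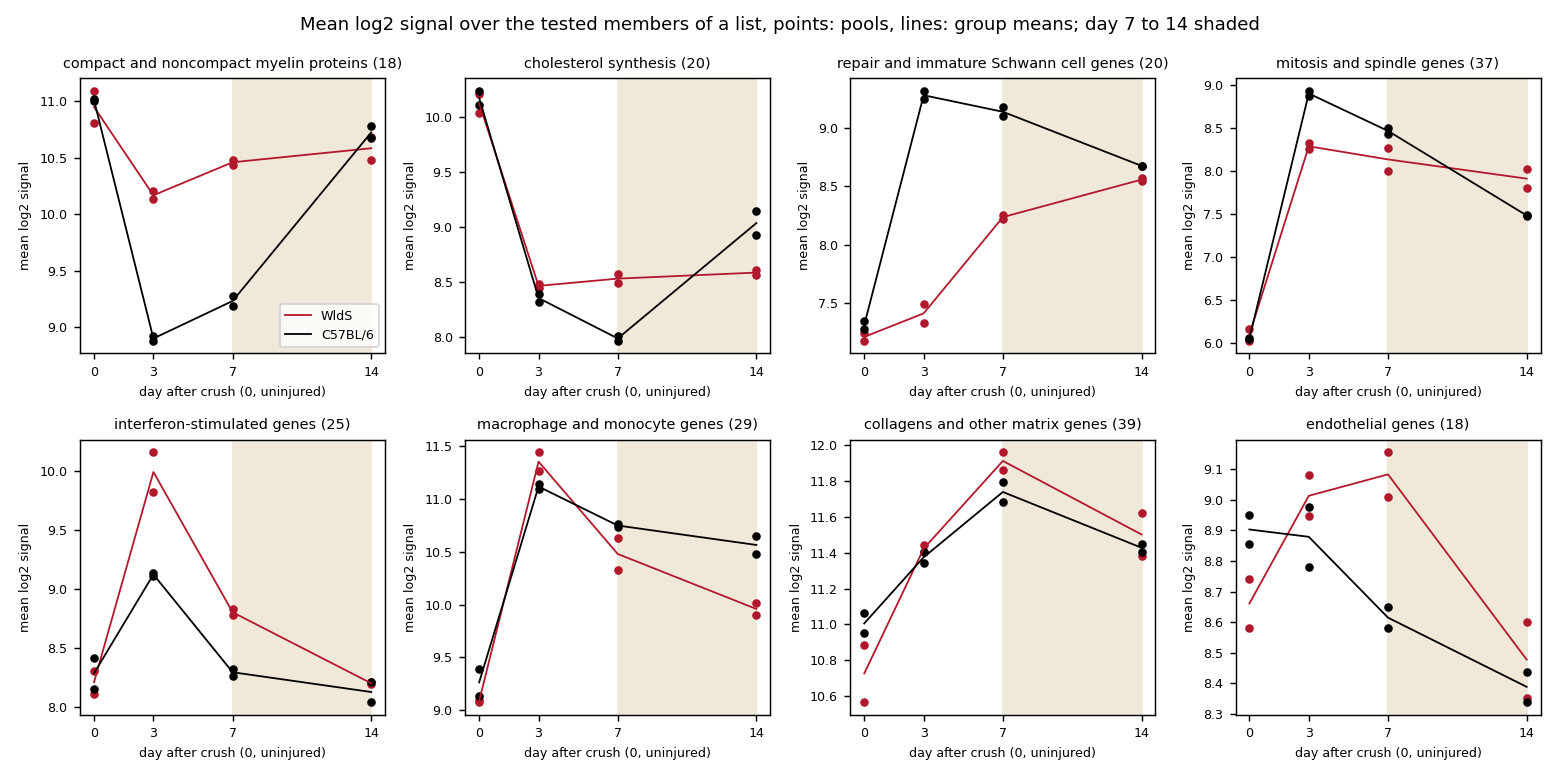
Mean log2 signal over the tested members of 8 gene lists by day after crush (0 is uninjured), WldS in red and C57BL/6 in black, points being pools and lines group means, with the day 7 to day 14 interval shaded and a vertical axis of its own for each list. Myelin and cholesterol lines climb in C57BL/6 across the shaded interval and stay nearly level in WldS, and the repair Schwann cell line climbs in WldS and descends in C57BL/6.

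The plot of list courses sets these changes in time. The repair Schwann cell list averaged 7.21, 7.41, 8.24 and 8.56 in WldS at days 0, 3, 7 and 14, and 7.31, 9.28, 9.14 and 8.68 in C57BL/6. At day 14 the WldS mean was thus 8.56 and the C57BL/6 mean 8.68, the closest of the 3 injured times.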

How the data were processed

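RNA of pooled nerve segments was hybridised to Affymetrix mouse expression arrays, 2 per group. The authors deposited log2 expression values, and per the submitters' processing notes GCOS 1.4, RMA, limma and Partek were used, with no role given. The genome build is not given in the sources used here, and the number of arrays limits the precision. Of 45101 probe sets, 64 controls were left out, 34945 had 1 gene symbol, 932 several and 9160 none. Where a gene had several, only its brightest one by mean signal across the 16 arrays was used. Other sets of a named gene are not always given, and some changed less in WldS, such as those of Kit (-0.07) and Pfkp (-0.12 and -0.19). Genes with a mean at or above the 30th percentile entered a limma fit (limma 3.58.1, R 4.3.3) of all 8 groups, which share 1 estimate of the spread with 8 residual degrees of freedom, and p-values were Benjamini-Hochberg adjusted over 14545 genes. The fit was tested on simulated data.

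Named were the 12 largest rises and 12 largest falls among called genes with groups that do not overlap (clone names passed over), up to 5 called members of each list in each direction, every axonal gene, and the 6 largest strain differences each way. Any further gene, list members beyond the first 5 included, was picked with its values in view. The comparison, its members and the 37 lists (680 tested genes) were chosen with earlier results of these data known, and no list is independent support. A group mean below the dim filter gives only a bound on a fold. Alternatives changed the filter, normalization, probe set choice, arrays, spread model and covariates.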

Additional observations from a re-analysis of the deposited data

Results flagged for a closer look

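The 12 genes with the largest differences between the WldS and the C57BL/6 change were picked out because limma's test of that difference called them. The values are fitted differences of log2 changes. For Clca3a2, Tyrp1, Chil3, Rnase2a and Fam107a a group mean that enters the difference lies below the dim filter of 5.37, so for these 5 genes the size and the place among the largest are not exact.

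The WldS change was the higher one for 6. Clca3a2 differed by 3.35 and Wif1, a Wnt inhibitor, by 2.75, since both rose in WldS nerve and fell in C57BL/6 nerve. Crym, which binds thyroid hormone, differed by 2.59, Tyrp1 by 2.37 and the ephrin receptor Epha5 by 1.98. Other Tyrp1 probe sets above the dim filter changed by 0.43 and 1.18 in WldS and by -0.57 and -0.02 in C57BL/6, smaller differences. Igfbp2, an IGF-binding protein, differed by 2.18, with 6.09 and 6.05 at day 14 and 6.11 and 6.16 at day 7 in WldS, and 5.54 and 5.54 at day 14 and 7.90 and 7.66 at day 7 in C57BL/6.

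The WldS change was the lower one for the other 6. Chil3, a chitinase-like protein of alternatively activated macrophages, differed by -6.00, with 4.89 and 5.48 at day 14 and 5.68 and 5.73 at day 7 in WldS, and 11.34 and 10.68 at day 14 and 5.62 and 5.45 at day 7 in C57BL/6. Of the day 14 and day 7 pools, only those of C57BL/6 at day 14 were high, and day 3 is not covered here. Rnase2a, an eosinophil-associated ribonuclease, differed by -4.25 and likewise was high in those pools, at 8.72 and 8.02. Fam107a differed by -5.54, with 10.59 and 10.71 at day 14 and 10.77 and 11.23 at day 7 in WldS, and 10.18 and 10.45 at day 14 and 4.57 and 5.68 at day 7 in C57BL/6. Ncmap, a myelin protein, differed by -4.10, the potassium channel Kcnk1 by -3.95 and Ddn (dendrin) by -3.92. Among the day 7 and day 14 pools, only those of C57BL/6 at day 7 were low in these last 4 genes, on the probe sets used. Day 3 is not covered by this statement. Another Kcnk1 set above the dim filter changed by -0.24 in WldS and by 0.50 in C57BL/6, so the strains differed far less on it. Another Fam107a set above the filter changed by -0.51 and 2.55, also a smaller difference.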

How the results depend on the processing

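No named gene that was called, and none of those with the largest strain differences, reversed direction under any alternative run. Axonal genes that were not called did not all keep their sign. The median of their list was 0.016 in the fit reported and -0.165 without day 7 replicate 1. The count of 760 WldS calls was 143 with the 4 compared arrays alone, 365 without both arrays of high 3'/5' difference, 182 with the 2-fold rule, and 246 to 935 when 1 array was left out (246 without day 14 replicate 2, 444 without day 7 replicate 2, 714 without day 7 replicate 1, 935 without day 14 replicate 1). Called list members, 105 in the fit reported, numbered 31 with the compared arrays alone, 60 without both high arrays, and 40 to 110 with 1 array left out. The named genes called, 106, numbered 49, 67 and 55 to 95 in the same fits. C57BL/6 calls numbered 1836 with its 4 arrays alone, 239 with the 2-fold rule and 314 to 410 with 1 array left out, and called strain differences 129 to 214. Higher genes were 43.2% to 59.4% of C57BL/6 calls over its alternatives, against 47.1% in the fit reported, and cyclic loess gave 409 higher and 400 lower. With quantile normalization 40.0% of WldS calls were higher, against 30.8%.

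Replicate numbers do not pair the samples: same-numbered WldS pools at days 7 and 14 had deviations correlated at 0.00324, and pairs of groups ranged from -0.582 to 0.193. With the replicate number as a block, limma called 673 genes in WldS, 698 in C57BL/6 and 192 for the difference. The cause of these shifts was not tested. Changes smaller than the spread between 2 pools cannot be seen with these arrays.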
